A study of Mus musculus with 12 samples.

Results

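Mouse embryonic fibroblasts (MEF) carrying a single intact, floxed copy of Mbd3 were compared with wild-type fibroblasts 4 days after doxycycline (DOX) had switched on the reprogramming factors. The comparison was defined by the genotype and stage labels and took 4 of the 12 arrays of the series. These were Mbd3 flox/- cells at day 4 of DOX and Mbd3 flox/- MEF before DOX, set against Mbd3+/+ (WT) cells at day 4 of DOX and WT MEF before DOX. Mbd3 flox/- cells carry a floxed and a deleted copy of Mbd3. Both genotypes were labelled as transgenic for DOX-inducible Oct4, Sox2, Klf4 and Myc (OSKM), and all 4 samples were labelled as embryonic fibroblasts. According to the labels, the medium held N2B27, serum replacement, LIF and the inhibitors known as 2i, and the cells grew on irradiated DR4 feeder fibroblasts, so RNA of feeder cells can be present in every sample. The promoter that drives the transgenes, the number of embryos behind a culture and its clonal origin are not stated in the labels. Each genotype and stage had 1 array, so a difference between arrays of a stage is a difference between 2 samples, and genotype, culture and array cannot be told apart.

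Reprogramming with OSKM begins with the silencing of fibroblast genes and a mesenchymal-to-epithelial transition, and the endogenous pluripotency network is switched on later. Mbd3 is a subunit of NuRD, a complex that joins nucleosome remodelling with histone deacetylation and that represses genes of other cell states. In a population of reprogramming cells usually a minority advances, so the signal of a culture averages cells at different points of this path. In such bulk samples, fewer cells of a type and less RNA per cell cannot be told apart.

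Mbd3 itself had a log2 signal of 9.11 in Mbd3 flox/- cells and 9.67 in WT cells at day 4, which was 1.47-fold lower in Mbd3 flox/-. In MEF the signal was 8.92 in Mbd3 flox/- and 9.20 in WT. The lower signal thus went with the label at both stages, and the sources used here do not say whether the probes lie in the deleted part. The gaps were small, at -0.56 log2 at day 4, -0.28 in MEF and -0.14 at day 8. Over all genes the median absolute difference was 0.34 at day 4, 0.19 in MEF and 0.59 at day 8. Of the 43 fibroblast markers measured, 41 lay above the array median in Mbd3 flox/- at day 4, 42 in WT at day 4, 42 in Mbd3 flox/- MEF and 41 in WT MEF. This count does not tell fibroblasts from the other samples, since 40 of the 43 were above the array median in WT iPSC as well. The mean log2 signal of the 43 separated them more, at 9.04 in Mbd3 flox/- and 10.71 in WT at day 4, 11.55 in Mbd3 flox/- and 11.21 in WT MEF, and 7.11 in Mbd3 flox/- and 9.12 in WT iPSC.

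Some genes separated the genotypes before any DOX was given. Hprt, a purine salvage enzyme, had a log2 signal of 6.51 in Mbd3 flox/- and 10.76 in WT at day 4, against 8.46 in Mbd3 flox/- and 10.32 in WT MEF. It was lower in Mbd3 flox/- at day 8 as well (5.15 in Mbd3 flox/- and 11.17 in WT) and in induced pluripotent stem cells, or iPSC (4.90 in Mbd3 flox/- and 10.96 in WT). The Y-linked gene Eif2s3y had a log2 signal of 9.92 in Mbd3 flox/- and 6.24 in WT at day 4, and 10.06 in Mbd3 flox/- and 5.73 in WT MEF. Uty, also Y-linked, showed no such gap, at 9.15 in Mbd3 flox/- and 9.09 in WT at day 4 and at 9.65 in Mbd3 flox/- and 9.61 in WT MEF. Kdm5d, another Y-linked gene, was at 5.87 in Mbd3 flox/- and 5.01 in WT at day 4 and at 6.95 in Mbd3 flox/- and 4.99 in WT MEF. Xist, the RNA that coats the inactive X chromosome, was at 9.41 in Mbd3 flox/- and 10.81 in WT at day 4, and at 9.68 in Mbd3 flox/- and 7.51 in WT MEF. Xist was above the array median of 6.31 on all 4 arrays. Grb10, an imprinted adaptor that restrains growth, was at 10.17 in Mbd3 flox/- and 12.26 in WT at day 4, a gap close to that in MEF (10.16 in Mbd3 flox/- and 12.46 in WT). For Hprt, Eif2s3y, Kdm5d, Xist and Grb10 the MEF arrays thus differed before DOX, for Xist in the opposite direction to day 4. The part of these genes in the other differences was not tested.

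Over 13044 genes above the array median on at least 1 of the 12 arrays, 1678 genes (12.9%) lay at least 2-fold apart at day 4. Of these, 629 (4.82%) were higher and 1049 (8.04%) were lower in Mbd3 flox/- than in WT. Differences of at least 4-fold were found for 140 genes that were higher and 274 that were lower. The median difference over all genes was 0.08 on the log2 scale. The same arithmetic on the other single-array pairs of Mbd3 flox/- and WT gave 538 genes (4.12%) in MEF, 4147 (31.8%) at day 8 and 662 (5.08%) in iPSC, where 245 (1.88%) were higher and 417 (3.2%) lower. In MEF, 304 genes (2.33%) were higher and 234 (1.79%) were lower in Mbd3 flox/-. The day 4 cultures therefore lay further apart than the MEF cultures and less far than the day 8 cultures. For the WT day 8 array one label names 4 days, whereas its title and stage label name 8 days, which were used.

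**Figure D1:**
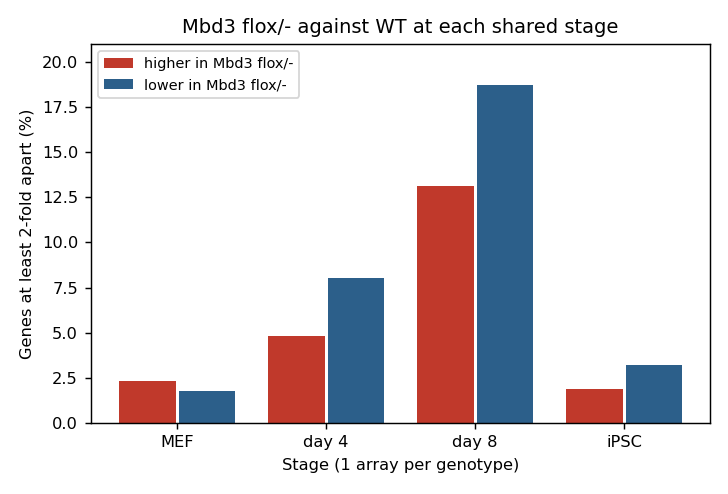
Percent of 13044 genes at least 2-fold apart between 1 Mbd3 flox/- array and 1 WT array at each stage that both genotypes have, with genes higher in Mbd3 flox/- in red and lower in blue. At day 4 the bars stand at 4.82% and 8.04%, above the 2.33% and 1.79% of MEF and below the 13.1% and 18.7% of day 8.

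Most of the day 4 differences were not present at 2-fold in the fibroblasts. Of the 629 genes higher in Mbd3 flox/- at day 4, 32 (5.09%) were already at least 2-fold higher in Mbd3 flox/- MEF, against 2.33% of all genes, 14 were at least 2-fold lower there, and 480 (76.3%) differed by under 0.5 log2 between the MEF arrays. Of the 1049 genes lower at day 4, 88 (8.39%) were already at least 2-fold lower in MEF, against 1.79% of all genes, 66 were at least 2-fold higher there, and 630 (60.1%) differed by under 0.5 log2 there. Over all genes 84.3% differed by under 0.5 log2 in MEF. Across genes the MEF difference and the day 4 difference, which share no array, correlated with r = 0.09 (n = 13044 genes, which are not independent replicates).

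Each day 4 array was then set against the MEF array of its own genotype. In Mbd3 flox/- cells, 1767 genes (13.5%) were at least 2-fold higher and 1972 (15.1%) at least 2-fold lower at day 4 than in MEF, together 28.7% of genes. In WT cells the numbers were 711 genes (5.45%) higher and 905 (6.94%) lower, together 12.4%. More than double the number of genes thus lay beyond 2-fold in Mbd3 flox/- cells. The 473 genes higher in both genotypes made up 26.8% of the Mbd3 flox/- list and 66.5% of the WT list. The 669 genes lower in both made up 33.9% of the Mbd3 flox/- list and 73.9% of the WT list. The changes of the 2 genotypes share no array, and across genes they correlated with r = 0.67, with a slope of 1.08 of the Mbd3 flox/- change on the WT change. The change from MEF was at least 2-fold more positive in Mbd3 flox/- for 890 genes (6.82%) and at least 2-fold more negative for 1235 genes (9.47%), together 16.3%.

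**Figure D2:**
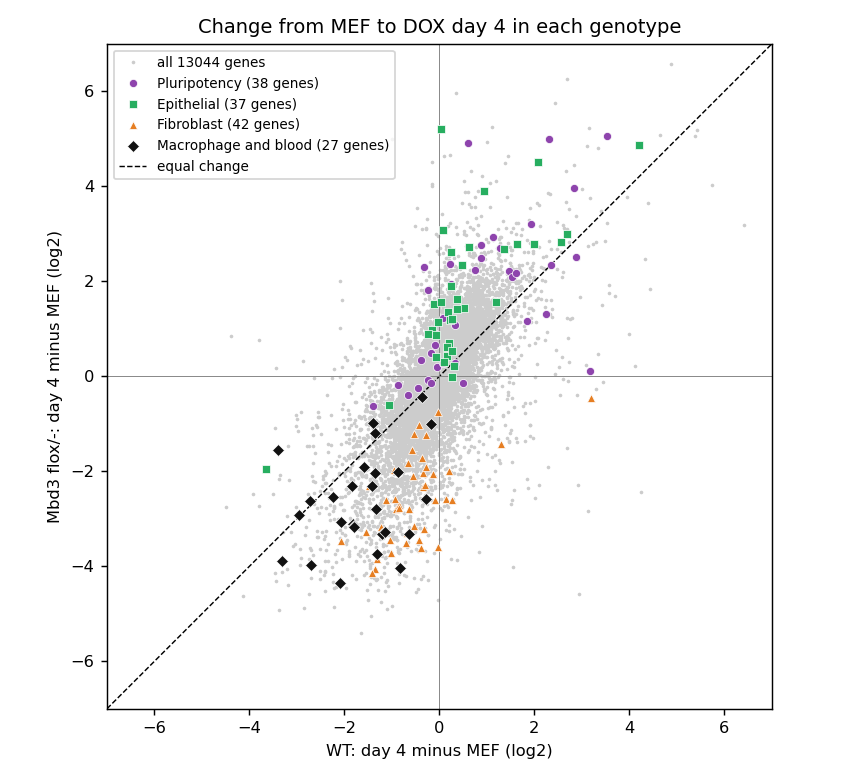
Change from MEF to day 4 of DOX (log2) in Mbd3 flox/- cells on the vertical axis and in WT cells on the horizontal axis, with 1 grey point per gene and 4 gene lists in colour. Most fibroblast genes lie below the dashed line of equal change, with a median change of -2.59 in Mbd3 flox/- and -0.55 in WT, and most epithelial genes lie above it.

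The genes that differed at day 4 were set against the end of the path, using the iPSC and MEF arrays, which do not enter the day 4 difference. Of the 629 genes higher in Mbd3 flox/-, 256 (40.7%) were at least 2-fold higher in iPSC than in MEF in both genotypes, against 12.5% of all genes. Another 224 (35.6%) lay within 2-fold of MEF in the iPSC of both genotypes, against 57.8% of all genes. Of the 1049 genes lower in Mbd3 flox/-, 757 (72.2%) were at least 2-fold lower in iPSC than in MEF in both genotypes, against 15.3% of all genes. Genes lower at day 4 were therefore mostly genes that iPSC express less than MEF. Among genes higher at day 4, those that iPSC express more than MEF were the largest of the 3 classes and exceeded their share of all genes, whereas those within 2-fold of MEF fell short of theirs.

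Of the 4 reprogramming factors themselves, 3 were at least 2-fold lower and 0 higher in Mbd3 flox/- cells at day 4. Over all genes 8.04% were lower and 4.82% higher. Pou5f1, which encodes Oct4, had a log2 signal of 9.71 in Mbd3 flox/- and 11.91 in WT at day 4, and of 4.64 in Mbd3 flox/- and 6.52 in WT MEF. It was 33.6-fold higher than in MEF in Mbd3 flox/- cells and 42.0-fold higher in WT cells. Klf4 was at 7.20 in Mbd3 flox/- and 10.20 in WT at day 4, whereas in MEF it was higher in Mbd3 flox/- (9.49 in Mbd3 flox/- and 8.11 in WT). Myc was at 6.88 in Mbd3 flox/- and 10.86 in WT at day 4, a 15.7-fold difference, with similar signals in MEF (9.56 in Mbd3 flox/- and 9.35 in WT). Klf4 and Myc were thus below MEF in Mbd3 flox/- cells at day 4 and above MEF in WT cells. Sox2 was near the array median on both day 4 arrays, at 6.03 in Mbd3 flox/- and 6.005 in WT, and reached 12.45 in Mbd3 flox/- and 12.42 in WT iPSC. The sources used here do not say whether these probes read the transgenes, so endogenous and transgenic RNA cannot be told apart.

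Pluripotency genes were higher in Mbd3 flox/- cells for 16 of 38 genes and lower for 1, beyond 2-fold, against 4.82% and 8.04% of all genes. The median difference of the list was 0.69 log2, against 0.08 for all genes, and the MEF arrays differed by a median of 0.04. Relative to MEF, 23 of the 38 were at least 2-fold higher in Mbd3 flox/- cells and 14 in WT cells. Over all genes these shares were 13.5% and 5.45%. Utf1, a chromatin-associated factor of pluripotent cells, was at 9.51 in Mbd3 flox/- and 5.35 in WT at day 4, against 4.58 in Mbd3 flox/- and 4.76 in WT MEF. This 17.8-fold difference was the widest of the list. Nr0b1 (Dax1), a nuclear receptor of the pluripotency network, was at 9.86 in Mbd3 flox/- and 6.92 in WT at day 4, and both were above MEF (4.85 in Mbd3 flox/- and 4.61 in WT). Esrrb, an orphan nuclear receptor of naive pluripotency, was at 7.10 in Mbd3 flox/- and 4.54 in WT, and the WT signal lay below the lower quartile of the array (4.68), which limits its fold. Sall4, a zinc finger protein of pluripotent cells that binds NuRD, was at 9.16 in Mbd3 flox/- and 6.88 in WT.

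Nanog, a central factor of pluripotency, was high in both genotypes, at 10.36 in Mbd3 flox/- and 9.18 in WT at day 4, against 5.30 in Mbd3 flox/- and 5.66 in WT MEF. This was 33.3-fold above MEF in Mbd3 flox/- cells and 11.5-fold in WT cells, a difference of 2.27-fold between the day 4 arrays. Trh, the thyrotropin-releasing hormone gene, went the other way, at 5.83 in Mbd3 flox/- and 8.71 in WT. In iPSC, Utf1 reached 11.29 in Mbd3 flox/- and 11.58 in WT, Esrrb 11.39 in Mbd3 flox/- and 11.30 in WT, and Nanog 12.70 in Mbd3 flox/- and 12.55 in WT, so at day 4 all 3 genes were still below their iPSC signal in both genotypes.

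**Figure D3:**
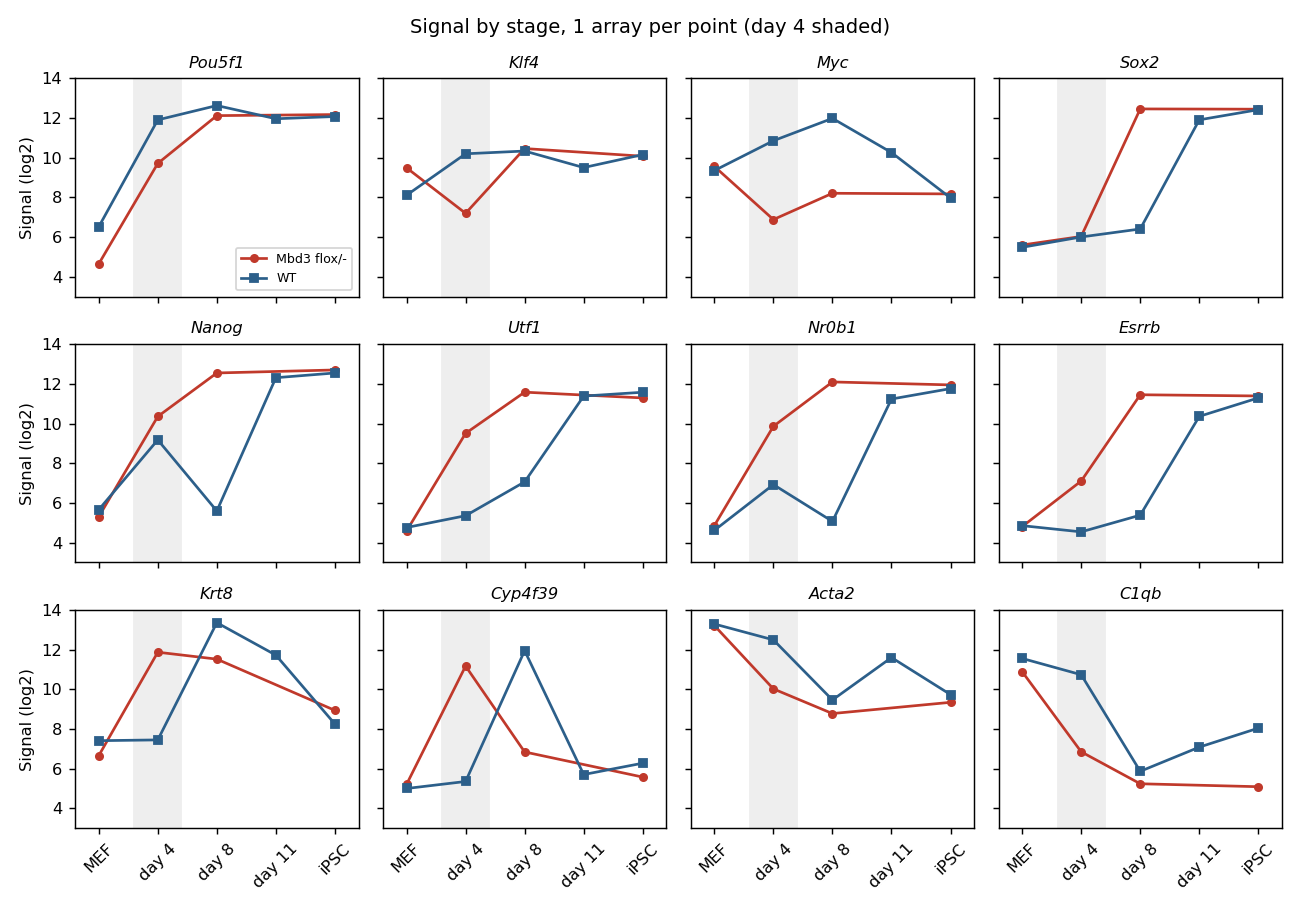
Log2 signal of 12 genes by stage, with 1 array per point, Mbd3 flox/- in red, WT in blue and day 4 shaded. Utf1 and Nr0b1 stand higher in Mbd3 flox/- at day 4, Klf4 and Myc stand lower, and Sox2 lies at 6.03 in Mbd3 flox/- and 6.005 in WT.

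Epithelial genes were higher in Mbd3 flox/- cells for 20 of 37 genes and lower for 0, beyond 2-fold. Over all genes 4.82% were higher and 8.04% lower, and the median difference of the list was 1.15 log2. That median was 0.11 in MEF, -1.49 at day 8 and -0.44 in iPSC, so the higher signal in Mbd3 flox/- was not kept later. Of the 37, 24 were at least 2-fold above MEF at day 4 in Mbd3 flox/- cells and 8 in WT cells, against 13.5% and 5.45% of all genes. Krt8, a keratin of simple epithelia, was at 11.88 in Mbd3 flox/- and 7.45 in WT at day 4, against 6.66 in Mbd3 flox/- and 7.41 in WT MEF. It was thus 37.2-fold above MEF in Mbd3 flox/- cells and 1.03-fold above MEF in WT cells. Dsp (desmoplakin, which anchors keratin to desmosomes) was at 10.98 in Mbd3 flox/- and 7.71 in WT. Esrp1, an epithelial splicing factor, was at 7.93 in Mbd3 flox/- and 4.82 in WT, and Elf3, an epithelial ETS factor, at 8.93 in Mbd3 flox/- and 6.11 in WT. Cdh1 (E-cadherin) differed little, at 10.52 in Mbd3 flox/- and 10.30 in WT, both far above MEF (5.65 in Mbd3 flox/- and 6.11 in WT). E-cadherin was therefore high in both cultures, while Krt8 and Esrp1 were near their MEF signal in WT cells.

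The promoters of the epithelial list were searched for GCCNNNGGC, the palindrome bound by AP-2 factors, because 2 genes encoding AP-2 factors had the widest differences of the trophoblast list. Tfap2a had a log2 signal of 9.57 in Mbd3 flox/- and 6.47 in WT at day 4, with a gap already present in MEF (7.43 in Mbd3 flox/- and 5.56 in WT). Tfap2c was at 8.24 in Mbd3 flox/- and 5.21 in WT, with 5.07 in Mbd3 flox/- and 5.03 in WT MEF. The palindrome reads the same on both strands. Windows of 250 bases before to 50 after the start site were searched, with 1 window per gene from RefSeq (GRCm38.p6). It was present in 8 of the 23 epithelial genes with a window, in 25.3% of all windows of kept genes, in 28.1% of those higher and 26.5% of those lower in Mbd3 flox/- at day 4. The share was thus similar among genes that were higher, genes that were lower and all kept genes. Dsp and Spint2, a protease inhibitor of epithelia (a difference of 2.19 log2), both have a match before the start site and are shown up to the start site with the match in capitals, and Spint2 was chosen after its values were seen. The Dsp window is chr13:38151044-38151293 on the plus strand, with the match at -75 to -67 from the start site, and the Spint2 window is chr7:29281978-29282227 on the minus strand, with the match at -88 to -80.
Dsp: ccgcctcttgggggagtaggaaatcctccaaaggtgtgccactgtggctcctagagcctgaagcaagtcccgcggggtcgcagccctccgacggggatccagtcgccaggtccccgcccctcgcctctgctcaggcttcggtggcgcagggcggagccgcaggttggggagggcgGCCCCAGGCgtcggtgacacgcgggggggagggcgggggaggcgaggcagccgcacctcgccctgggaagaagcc
Spint2: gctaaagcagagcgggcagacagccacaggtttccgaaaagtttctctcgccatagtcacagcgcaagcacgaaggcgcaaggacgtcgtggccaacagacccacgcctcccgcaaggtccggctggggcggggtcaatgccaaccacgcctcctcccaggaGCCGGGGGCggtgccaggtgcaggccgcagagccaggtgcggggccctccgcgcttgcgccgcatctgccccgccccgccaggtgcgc

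Keratinocyte genes, which mark stratified epidermis, were higher in Mbd3 flox/- cells for 8 of 13 kept genes and lower for 0. Over all genes 4.82% were higher and 8.04% lower. The median difference of the list was 1.25 log2. The basal keratin Krt14 was at 7.73 in Mbd3 flox/- and 5.34 in WT at day 4, Krt17 at 7.51 in Mbd3 flox/- and 5.52 in WT, and Krt6b at 6.74 in Mbd3 flox/- and 4.05 in WT. The WT signal of Krt6b lay below the lower quartile. The defining genes thus stood at moderate signals in Mbd3 flox/-, and 7 of the 20 measured genes of the list were above the array median there, against 3 in WT at day 4 and 3 in each MEF array. Later in the series the same genes were high in WT at day 8 (12.18 for Krt14) and low in Mbd3 flox/- at day 8 (6.11 for Krt14). The mean log2 signal of the 20 measured genes was 8.87 in WT at day 8, 5.70 in WT at day 11 and 5.79 in WT iPSC. Trophoblast genes were higher in Mbd3 flox/- for 6 of 16 and lower for 0, and beside the AP-2 genes these included Tead4, a TEA-domain factor, at 9.14 in Mbd3 flox/- and 7.60 in WT.

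Of the 12 genes with the widest positive difference, Krt8 is on the epithelial list and Utf1 on the pluripotency list, and the other 10 are on no list. Cyp4f39, a fatty acid hydroxylase of the cytochrome P450 family, had the widest difference of all, with 11.18 in Mbd3 flox/- and 5.36 in WT at day 4 and 5.21 in Mbd3 flox/- and 5.003 in WT MEF. This is a 56.5-fold difference. Aqp3, a water and glycerol channel, was at 10.78 in Mbd3 flox/- and 6.304 in WT, and Krtdap, a keratinocyte differentiation gene, at 9.09 in Mbd3 flox/- and 4.63 in WT. The embryonic haemoglobin gene Hbb-y was at 9.60 in Mbd3 flox/- and 5.36 in WT, and Slc17a6, a vesicular glutamate transporter, at 8.88 in Mbd3 flox/- and 4.56 in WT. At day 8 the order of several of these genes was the other way round, with Cyp4f39 at 6.85 in Mbd3 flox/- and 11.95 in WT, Krtdap at 4.57 in Mbd3 flox/- and 10.53 in WT, and Hbb-y at 4.37 in Mbd3 flox/- and 9.08 in WT. Cyp4f39, Krtdap and Hbb-y were thus high at day 4 in Mbd3 flox/- and high at day 8 in WT. In WT at day 11 they were low, at 5.71, 4.77 and 4.57. The other genes among the 12 were Krt8, C330024D21Rik, Cyp2s1, Atp2a3, Utf1, Elovl7 and AU018091, between 15.1-fold and 21.4-fold higher. Of these, C330024D21Rik was already higher in MEF (7.67 in Mbd3 flox/- and 4.71 in WT).

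Fibroblast genes were lower in Mbd3 flox/- cells for 33 of 42 genes and higher for 0, against 8.04% and 4.82% of all genes. The median difference of the list was -1.86 log2 at day 4, 0.18 in MEF, -1.66 at day 8 and -1.62 in iPSC. The lower signal was thus not particular to day 4. Relative to MEF, 40 of the 42 were at least 2-fold lower in Mbd3 flox/- cells and 10 in WT cells, against 15.1% and 6.94% of all genes. Another 2 were at least 2-fold higher in WT cells. Fbln5, an elastic fibre protein, was at 8.54 in Mbd3 flox/- and 11.32 in WT at day 4, against 12.59 in Mbd3 flox/- and 12.68 in WT MEF. Tnc (tenascin C) was at 8.30 in Mbd3 flox/- and 10.91 in WT, and Ccn1, a matricellular protein, at 8.97 in Mbd3 flox/- and 11.73 in WT. These genes remained above the array median on both day 4 arrays. The summed linear signal of the 43 measured fibroblast genes was 41787 in Mbd3 flox/- and 117252 in WT at day 4, and 204161 in Mbd3 flox/- and 181794 in WT MEF.

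Macrophage and blood genes, which mark another cell type that MEF cultures can hold, were also lower in Mbd3 flox/- at day 4, but their pattern over the 4 arrays was not that of the fibroblast genes. They were lower in Mbd3 flox/- for 23 of 27 kept genes, against 8.04% of all genes, with a median difference of -2.28 log2. Of the 27, 13 were already at least 2-fold lower in Mbd3 flox/- MEF, against 1.79% of all genes. The median difference in MEF was -0.99. Relative to MEF, 24 of the 27 were at least 2-fold lower in Mbd3 flox/- cells (median -2.79) and 21 in WT cells (median -1.41). Over all genes these shares were 15.1% and 6.94%. C1qb, a complement subunit made by macrophages, was at 6.85 in Mbd3 flox/- and 10.74 in WT at day 4, against 10.90 in Mbd3 flox/- and 11.56 in WT MEF. F13a1 was at 5.05 in Mbd3 flox/- and 8.64 in WT, and Fcer1g, an Fc receptor subunit, at 6.19 in Mbd3 flox/- and 9.44 in WT. Of the 30 measured genes, 4 were above the array median in Mbd3 flox/- and 22 in WT at day 4, while 26 were in Mbd3 flox/- MEF and 27 in WT MEF. The summed linear signal of the 30 was 2784 in Mbd3 flox/- and 13084 in WT at day 4, and 15580 in Mbd3 flox/- and 31314 in WT MEF. The part of macrophage RNA in the other day 4 differences was not tested.

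Smooth muscle genes, which MEF express as contractile fibroblasts do, were lower in Mbd3 flox/- for 11 of 17 genes, against 8.04% of all genes. Their median difference was -1.43 log2. Myl9, a myosin light chain, was at 7.97 in Mbd3 flox/- and 11.31 in WT at day 4, a 10.2-fold difference, against 12.68 in Mbd3 flox/- and 12.81 in WT MEF. Acta2 (smooth muscle actin) was at 10.03 in Mbd3 flox/- and 12.50 in WT, and Cnn2 (calponin 2) at 8.88 in Mbd3 flox/- and 11.38 in WT. In both genotypes these genes were below MEF, since 16 of the 17 were at least 2-fold lower in Mbd3 flox/- cells and 13 in WT cells. Over all genes these shares were 15.1% and 6.94%. The promoters of the list were searched for the CArG box, the site of serum response factor, on both strands and in the same windows. It was present in 2 of the 14 smooth muscle genes with a window, in 1.32% of the windows of kept genes, in 1.03% of those higher and 2.06% of those lower in Mbd3 flox/- at day 4. Those 2 genes are Myl9 (chr2:156775214-156775463, plus strand, box at -161 to -152) and Cnn2 (chr10:79988350-79988599, plus strand, box at -56 to -47), and their promoters are shown up to the start site with the box in capitals.
Myl9: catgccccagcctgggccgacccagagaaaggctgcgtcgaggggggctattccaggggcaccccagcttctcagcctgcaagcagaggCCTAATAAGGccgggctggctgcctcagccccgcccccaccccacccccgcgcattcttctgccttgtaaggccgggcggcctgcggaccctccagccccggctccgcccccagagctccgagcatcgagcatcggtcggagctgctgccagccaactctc
Cnn2: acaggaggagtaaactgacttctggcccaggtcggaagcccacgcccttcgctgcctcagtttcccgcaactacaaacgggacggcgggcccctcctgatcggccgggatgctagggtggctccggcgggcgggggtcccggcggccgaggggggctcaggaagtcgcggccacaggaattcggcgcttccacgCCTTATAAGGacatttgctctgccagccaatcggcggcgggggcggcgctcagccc

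Genes of TGF-beta signalling and of the epithelial-mesenchymal transition were mostly lower in Mbd3 flox/- cells. The lists are not independent, since 7 of the 16 transition genes are also on the fibroblast list and 2 (Tgfb1 and Tgfbr2) are also on the TGF-beta list. TGF-beta genes were lower in Mbd3 flox/- for 12 of 21 and higher for 1, against 8.04% and 4.82% of all genes. Their median difference was -1.23 log2. Among ligands and their handling, Tgfb3 was at 7.73 in Mbd3 flox/- and 10.19 in WT, and Bmp1, a protease that processes matrix and ligand precursors, at 9.11 in Mbd3 flox/- and 11.01 in WT. The receptor Tgfbr2, counted on both lists, was at 8.76 in Mbd3 flox/- and 10.60 in WT. Among targets, Tgfbi was at 8.94 in Mbd3 flox/- and 11.43 in WT, and Id3, an inhibitor of helix-loop-helix factors, at 6.76 in Mbd3 flox/- and 8.68 in WT. These are the genes of the list with the widest differences. The gene that was at least 2-fold higher was Id1, of the same family as Id3, at 9.63 in Mbd3 flox/- and 8.55 in WT, and the inhibitors Smad7 (a difference of -0.03 log2), Bambi (0.04) and Skil (0.79) were not lower beyond 2-fold. These 3 were chosen after their values were seen. Of 16 transition genes, 7 were at least 2-fold lower and 0 higher. Snai2 (Slug), a repressor of E-cadherin, was at 6.87 in Mbd3 flox/- and 9.34 in WT at day 4, and both were below MEF (10.53 in Mbd3 flox/- and 10.89 in WT). Cdh11, a mesenchymal cadherin, was at 9.64 in Mbd3 flox/- and 12.07 in WT.

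**Figure D4:**
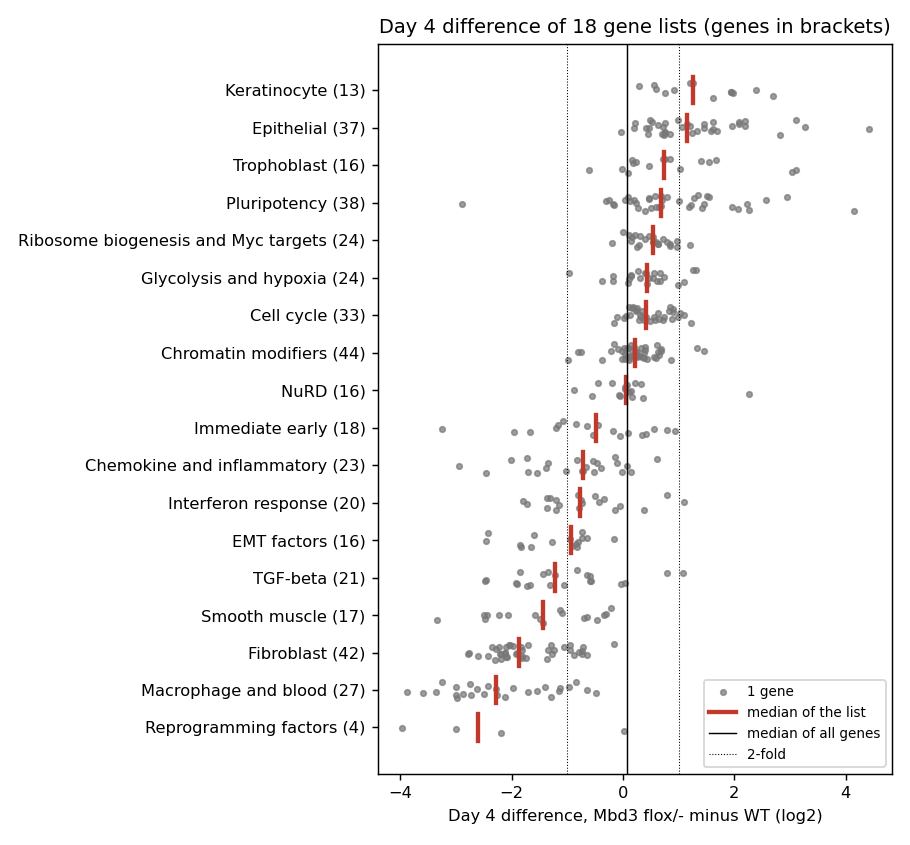
Day 4 difference (log2, Mbd3 flox/- minus WT) of every kept gene in 18 lists, with 1 grey point per gene and the list median in red, in order of the median. The keratinocyte (1.25) and epithelial (1.15) medians stand highest, and the macrophage (-2.28) and reprogramming factor (-2.60) medians lowest, around a median of 0.08 for all genes.

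Probes for microRNA loci gave 96 kept loci, of which 0 were at least 2-fold higher and 8 at least 2-fold lower in Mbd3 flox/- at day 4, with a median difference of -0.03 log2. The share of loci that were lower is near the 8.04% of all genes. These probes read RNA of the locus and not the mature microRNA. Mature sequences of 5 loci that were lower are shown because they name the products of these loci, with the seed (bases 2 to 8) in capitals, from RefSeq (GRCm38.p6). The 5 seeds differ from each other. The loci lie at chr1:137966650-137966673 (miR-181b-5p, plus strand), chr5:48223966-48223986 (miR-218-5p, plus strand), chr16:77598940-77598961 (miR-99a-5p, plus strand), chr13:48536078-48536099 (let-7d-5p, minus strand) and chr14:115043867-115043889 (miR-18a-5p, plus strand).
miR-181b-5p: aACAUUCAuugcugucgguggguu
miR-218-5p: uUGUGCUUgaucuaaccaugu
miR-99a-5p: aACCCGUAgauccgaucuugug
let-7d-5p: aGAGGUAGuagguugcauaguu
miR-18a-5p: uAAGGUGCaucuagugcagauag

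Mir181b-1 had a log2 signal of 6.19 in Mbd3 flox/- and 8.96 in WT at day 4, against 9.61 in Mbd3 flox/- and 8.94 in WT MEF. Mir218-1, which lies within the guidance gene Slit2, was at 6.32 in Mbd3 flox/- and 8.99 in WT at day 4, against 10.57 in Mbd3 flox/- and 9.38 in WT MEF. Mir99a was at 4.62 in Mbd3 flox/- and 6.51 in WT, and the signal in Mbd3 flox/- lay below the lower quartile. Mirlet7d, of the let-7 family that Lin28 restrains, was at 6.51 in Mbd3 flox/- and 7.66 in WT. These 4 loci were at least 2-fold below MEF in Mbd3 flox/- cells and within 0.5 log2 of MEF in WT cells. Mir18, of the Mir17 cluster that Myc activates, was above MEF in both genotypes, at 5.91 in Mbd3 flox/- and 7.05 in WT, against 4.84 in Mbd3 flox/- and 5.27 in WT MEF. The other loci that were lower were Mir145a (4.88 in Mbd3 flox/- and 8.14 in WT), Mir568 and Mir692-1.

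Interferon response genes were lower in Mbd3 flox/- for 8 of 20 genes at day 4 and higher for 1, against 8.04% and 4.82% of all genes. Their median difference was -0.77 log2. In MEF the list ran the other way, with 8 of 20 at least 2-fold higher in Mbd3 flox/-, against 2.33% of all genes. The median difference in MEF was 0.89. Ifit1, an antiviral RNA-binding protein, was at 6.33 in Mbd3 flox/- and 7.69 in WT at day 4, against 8.71 in Mbd3 flox/- and 6.48 in WT MEF. Chemokine and inflammatory genes were lower for 9 of 23 and higher for 0 at day 4. This list also ran the other way in MEF, with 9 of 23 higher and 0 lower in Mbd3 flox/-. Its median difference in MEF was 0.37. Mmp13, a collagenase, was at 7.25 in Mbd3 flox/- and 10.20 in WT at day 4, against 9.405 in Mbd3 flox/- and 8.37 in WT MEF. Ccl7, a monocyte chemokine, was at 8.50 in Mbd3 flox/- and 10.50 in WT at day 4, against 11.11 in Mbd3 flox/- and 9.84 in WT MEF. Immediate early genes were lower for 6 of 18 and higher for 0, with Egr1, a growth factor response gene, at 5.90 in Mbd3 flox/- and 9.15 in WT, against 9.42 in Mbd3 flox/- and 9.59 in WT MEF.

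Proliferation genes differed less. Cell cycle genes were higher for 3 of 33 and lower for 0, against 4.82% and 8.04% of all genes. Their median difference was 0.41 log2, and 31 of the 33 differences were positive, against 7457 of all 13044 genes. Relative to MEF, 28 of the 33 were at least 2-fold higher in Mbd3 flox/- cells and 6 in WT cells. Over all genes these shares were 13.5% and 5.45%. Bub1b, a mitotic checkpoint kinase, was at 10.65 in Mbd3 flox/- and 9.42 in WT at day 4, against 8.05 in Mbd3 flox/- and 8.72 in WT MEF. Ribosome biogenesis and Myc target genes were at least 2-fold above MEF in both genotypes, 21 of 24 in Mbd3 flox/- and 18 of 24 in WT. The median difference of the list was 0.54 between the day 4 arrays and already 0.24 between the MEF arrays. The median difference of the changes from MEF was 0.21. Tfrc, the transferrin receptor, was at 11.40 in Mbd3 flox/- and 10.20 in WT, against 8.02 in Mbd3 flox/- and 7.33 in WT MEF. Of the 24 day 4 differences 23 were positive, whereas the signal of Myc itself was lower in Mbd3 flox/-. Glycolysis and hypoxia genes were higher for 3 of 24 (Ankrd37, Pfkp and Slc16a3), and respiratory chain genes for 0 of 22, with 0 lower in either list.

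Among chromatin genes, 2 of 44 were at least 2-fold higher and 0 lower, so the share that was higher is near the 4.82% of all genes. These were Tet1, at 10.80 in Mbd3 flox/- and 9.34 in WT, and Tet2, at 10.88 in Mbd3 flox/- and 9.54 in WT. Both are enzymes that oxidise methylated cytosine, and Tet1 is also on the pluripotency list. Of 16 genes on the NuRD list, 1 was at least 2-fold higher and 0 were lower, with a median difference of 0.06 log2. The gene that was higher was Sall4, which binds NuRD and is also on the pluripotency list. The widest negative differences in the complex were Chd3, a remodelling ATPase, at 9.52 in Mbd3 flox/- and 10.39 in WT, and Mbd3. Cholesterol synthesis genes were higher for 2 of 17 and lower for 0, with a median difference of 0.60 at day 4 and of 0.46 in MEF. Genes of the unfolded protein response were higher for 2 and lower for 2 of 19.

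Lists of other lineages varied in their counts, to be read against 4.82% higher and 8.04% lower over all genes. Germline genes were beyond 2-fold for 0 of 19, primed epiblast and mesendoderm genes higher for 1 and lower for 1 of 11, and endothelial genes lower for 1 of 11. Skeletal muscle genes were higher for 1 of 6 (Myl4) and lower for 0, cartilage, bone and fat genes lower for 3 of 12 and higher for 0, and 2-cell stage genes beyond 2-fold for 0 of 2. Primitive endoderm genes were lower for 4 of 13, and these were Pdgfra, Dab2, Col4a1 and Col4a2, of which fibroblasts also express Pdgfra and the collagens. The 2 probe sets of Dab2 disagreed, at -1.82 and -0.19 log2. Neural genes were higher for 5 of 15 and lower for 0. Nefl, a neurofilament, was at 10.94 in Mbd3 flox/- and 8.56 in WT at day 4, and both were above MEF (5.71 in Mbd3 flox/- and 5.41 in WT). Wnt genes were lower for 9 of 25 and higher for 1. The receptors Fzd1 (7.45 in Mbd3 flox/- and 9.96 in WT) and Fzd2 (7.52 in Mbd3 flox/- and 10.24 in WT) were lower, whereas Lef1, a transcription factor of the pathway, was at 8.58 in Mbd3 flox/- and 5.64 in WT, against 5.62 in Mbd3 flox/- and 5.67 in WT MEF. Sfrp4, a secreted inhibitor, was lower at day 4 (7.03 in Mbd3 flox/- and 10.11 in WT) and already in MEF (6.55 in Mbd3 flox/- and 10.51 in WT).

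Hox genes were higher for 2 and lower for 3 of 26, near the 4.82% and 8.04% of all genes, with Hoxa5 at 6.94 in Mbd3 flox/- and 8.82 in WT and Hoxd13 at 8.35 in Mbd3 flox/- and 6.56 in WT. Both differed the same way in MEF, with Hoxa5 at 8.37 in Mbd3 flox/- and 9.80 in WT and Hoxd13 at 9.30 in Mbd3 flox/- and 7.97 in WT. Imprinted genes were higher for 6 and lower for 7 of 23. Mest was at 8.08 in Mbd3 flox/- and 12.06 in WT at day 4, against 10.76 in Mbd3 flox/- and 12.32 in WT MEF. Plagl1, a zinc finger factor of growth control, was at 9.13 in Mbd3 flox/- and 11.04 in WT, against 11.44 in Mbd3 flox/- and 10.89 in WT MEF. Genes of p53 and senescence were higher for 1 and lower for 4 of 22, with Perp, a p53 target that is also a desmosome protein, at 12.002 in Mbd3 flox/- and 10.39 in WT.

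The 12 genes with the widest negative difference spanned 13.3-fold to 28.3-fold. E330013P04Rik was at 4.93 in Mbd3 flox/- and 9.75 in WT, the widest of them. Fndc1, a fibronectin-domain protein, was at 6.46 in Mbd3 flox/- and 10.86 in WT, and Crym, a thyroid hormone binding crystallin, at 6.65 in Mbd3 flox/- and 10.56 in WT. Crym was 6.44 in Mbd3 flox/- and 6.43 in WT MEF, so its difference lay in a higher signal in WT at day 4. By contrast, Lrrc17 was at 6.99 in Mbd3 flox/- and 10.79 in WT at day 4 and at 11.41 in Mbd3 flox/- and 11.86 in WT MEF, so its signal was below MEF mainly in Mbd3 flox/- cells. Cd34, a surface sialomucin, was at 8.03 in Mbd3 flox/- and 11.91 in WT, and Il1rn, an interleukin-1 antagonist, at 6.999 in Mbd3 flox/- and 10.82 in WT. The others were Hprt, AI506816, Mest, Myc, C1qb and Zfp979. Zfp979 lay below the lower quartile in Mbd3 flox/- (3.67, against 7.40 in WT), and AI506816 was already lower in MEF (8.40 in Mbd3 flox/- and 10.54 in WT).

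Few genes moved in opposite directions from MEF by at least 2-fold in each genotype. Higher in Mbd3 flox/- and lower in WT were 10 genes (0.0767%), and lower in Mbd3 flox/- and higher in WT were 44 (0.337%). The widest of the 44 was Serpina3n, a serine protease inhibitor of the acute phase, at 7.44 in Mbd3 flox/- and 9.78 in WT at day 4, against 12.02 in Mbd3 flox/- and 6.85 in WT MEF. Apod, a lipid carrier, was at 6.56 in Mbd3 flox/- and 10.25 in WT at day 4, against 8.99 in Mbd3 flox/- and 6.005 in WT MEF. For both genes the MEF arrays differed by more than 2 log2 in the opposite direction to day 4, which a ranking by the difference of the changes favours.

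The position of each day 4 array between the MEF and the iPSC of its own genotype was taken as the projection of its change from MEF onto the iPSC minus MEF difference, with 0 at MEF and 1 at iPSC. Over all genes the position was 0.592 in Mbd3 flox/- and 0.347 in WT. For comparison, WT lay at 0.524 at day 8 and at 0.732 at day 11, and Mbd3 flox/- at 0.984 at day 8. The WT day 8 array lay unevenly by list, at 0.140 for pluripotency genes, -0.044 for cell cycle genes and 1.895 for keratinocyte genes. For these lists it did not lie between WT day 4 and WT day 11. Over the 1624 genes at least 2-fold higher in the iPSC of both genotypes, the position was 0.486 in Mbd3 flox/- and 0.262 in WT, and over the 2000 genes lower in iPSC it was 0.655 in Mbd3 flox/- and 0.388 in WT. On both day 4 arrays the genes that iPSC express less had thus gone further than the genes they express more. By list, cell cycle genes lay at 0.861 in Mbd3 flox/- and 0.474 in WT, and epithelial genes at 0.844 in Mbd3 flox/- and 0.358 in WT. Fibroblast genes lay at 0.528 in Mbd3 flox/- and 0.287 in WT, pluripotency genes at 0.371 in Mbd3 flox/- and 0.185 in WT, and germline genes at 0.011 in Mbd3 flox/- and 0.061 in WT. WT lay further along for germline genes and also for endothelial (0.396 in Mbd3 flox/- and 0.543 in WT), glycolysis and hypoxia (0.341 in Mbd3 flox/- and 0.387 in WT), reprogramming factor (0.411 in Mbd3 flox/- and 0.421 in WT), 2-cell stage (0.767 in Mbd3 flox/- and 0.838 in WT) and sex-linked genes (0.271 in Mbd3 flox/- and 0.686 in WT). With 1 array a side these positions carry no error between cultures. The same MEF array enters the change and the iPSC minus MEF difference, which also defined the genes higher and lower in iPSC. How far this sharing moved the positions was not tested.

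**Figure D5:**
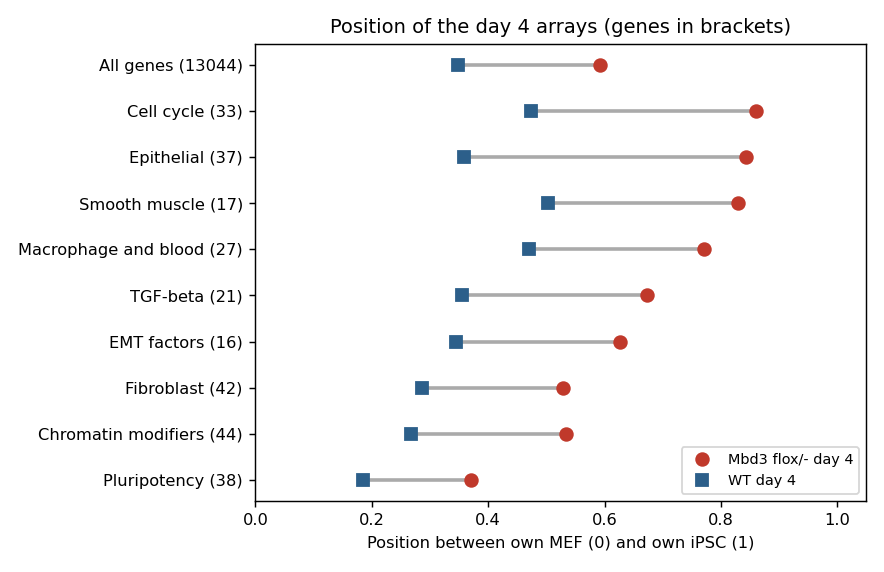
Position of the day 4 arrays between the MEF (0) and the iPSC (1) of their own genotype, over all genes and for 9 gene lists, with Mbd3 flox/- as red circles and WT as blue squares. The Mbd3 flox/- array lies further along for all genes (0.592 in Mbd3 flox/- and 0.347 in WT) and for the 9 lists shown, from 0.861 for cell cycle genes to 0.371 for pluripotency genes. Of the 34 lists, 6 that are not drawn had WT further along.

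The only fit with residual degrees of freedom that held the day 4 pair set Mbd3 flox/- against WT over the 4 shared stages (8 arrays, stage as a block). With limma and Benjamini-Hochberg adjustment, 0 of 13044 genes (0.0%) passed an adjusted p of 0.05, while 852 had an unadjusted p under 0.05. The lowest adjusted p was 0.693. Grb10 was lower in Mbd3 flox/- at all 4 stages, with a log2 difference of -2.40 ± 0.195 (SE, limma adjusted p = 0.693). Hprt likewise gave -4.55 ± 0.774, and Mbd3 gave -0.36 ± 0.15, with the same adjusted p. Utf1, with its day 4 difference of 4.15 log2, gave 2.05 ± 1.03 over the stages, and the residual spread of this fit is how far the genotype difference varied between stages. These p-values therefore rest on that variation between stages and not on a spread between replicate cultures. Nothing in the labels says which arrays came from separate cultures or embryos, so that variation may be technical in part. No statement on the day 4 arrays above rests on a test between cultures.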

How the data were processed

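RNA of mouse cells was extracted with TRIzol, labelled with biotin and hybridised to Affymetrix arrays, per the labels' protocols. The values deposited by the authors are log2 signals of 35512 probe sets on 12 arrays, from 3.11 to 13.99. How they were summarised and normalized was not given in the sources used here, and array signals have no sequencing depth. The number of arrays, 1 per genotype and stage, limits the precision. No column was left out.

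Array medians differed by 0.122 log2, so all 12 arrays were quantile normalized. Of the probe sets, 21789 had 1 symbol in the platform annotation, 1621 had several and 12102 were not listed, and the last 2 kinds were left out. Entrez identifiers linked 21698 to the RefSeq table of GRCm38.p6. Each of 19938 genes was read from its probe set of highest mean (999 had several), and 13044 genes above the array median (6.31) on at least 1 array were kept. A signal below the lower quartile of 4.68 limits a fold. Each genotype and stage was a group of 1 array, so a gene was counted when it was at least 2-fold apart, with no test. The fit over 4 shared stages, with 3 residual degrees of freedom, used limma 3.58.1 in R 4.3.3. It was also run on simulated data in which the genotype difference was the same at every stage. That run does not measure the power of the fit on these arrays. Other steps ran in Python 3.11.15. Promoter and microRNA sequences came from RefSeq (GRCm38.p6).

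The 34 gene lists hold 781 symbols, 724 measured and 649 kept, with 31 on several lists. The comparison, the lists and the motifs were chosen with earlier results of these data known. Named genes were the 12 widest each way whose brighter array was above the median, up to 4 per list by absolute difference, Mbd3, OSKM, Nanog and Cdh1, the 8 widest each way among genes within 0.5 log2 in MEF, and the 6 widest each way among genes that moved oppositely from MEF. Genes outside this rule are named as such or as all members of a small count. Alternatives were the deposited values, median centring, quantile normalization of the 4 arrays, other filters, the mean of probe sets and leaving out stages.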

Additional observations from a re-analysis of the deposited data

Results flagged for a closer look

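For 12 genes the change from MEF to day 4 ran in opposite directions in the 2 genotypes, each by at least 2-fold. With 1 array per point the difference was not tested, and these are the 6 widest each way. The values are differences of the changes on the log2 scale, Mbd3 flox/- minus WT. Higher than MEF in Mbd3 flox/- and lower than MEF in WT were the cornified envelope gene Sprr1a (4.11), Prss35 (3.65), Fhdc1 (3.42), the epithelial 14-3-3 gene Sfn (3.14), Sytl2 (3.11) and the phosphatase gene Inpp5d (2.97). Sprr1a had a log2 signal of 8.39 in Mbd3 flox/- and 6.45 in WT at day 4, against 6.38 in Mbd3 flox/- and 8.55 in WT MEF, so the arrays exchanged their order. Sytl2 differed by only 0.80 log2 at day 4 itself.

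Lower than MEF in Mbd3 flox/- and higher than MEF in WT were Serpina3n (-7.51), Apod (-6.68), E330013P04Rik (-5.97), the insulin-like growth factor binding gene Igfbp3 (-5.57), the dermal matrix gene Dpt (-5.21) and Egfl6 (-4.59). All 6 were higher in Mbd3 flox/- than in WT in MEF, by 1.15 to 5.17 log2, and lower at day 4, by 2.35 to 4.82 log2. Igfbp3, for example, was at 8.46 in Mbd3 flox/- and 12.04 in WT at day 4, against 12.48 in Mbd3 flox/- and 10.49 in WT MEF. In both groups the choice of genes favours such a crossing. The difference of the changes, by which they were ranked, equals the day 4 difference minus the MEF difference.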

How the results depend on the processing

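Counts of genes at least 2-fold apart at day 4 ranged over the alternative normalizations, filters and probe set rules from 597 to 712 for genes higher in Mbd3 flox/- and from 994 to 1069 for genes lower. Changes from MEF ranged from 1729 to 1881 higher and 1917 to 2024 lower in Mbd3 flox/- cells, and from 685 to 741 higher and 861 to 941 lower in WT cells. Of 982 values of named genes under alternatives, 1 moved by 0.25 log2 or more, which was Dab2 at -1.002 with the mean of its probe sets. Of 408 list medians, 47 moved by 0.1 log2 or more and 2 changed sign. The germline median was -0.17 with the filter on the 4 arrays alone (0.11 otherwise reported), and the primitive endoderm median was 0.024 with no filter, against -0.49. The position of Mbd3 flox/- was 0.65 with the filter on the 4 arrays, and otherwise as low as 0.591, while WT ranged from 0.346 to 0.384. The positions and the percentages of genes that were higher were alternatives chosen after seeing the data, and the position was not run with quantile normalization of the 4 arrays, which leaves out the iPSC arrays. Leaving out a stage in the limma fit gave 0 genes each time, with 374 to 979 at an unadjusted p under 0.05 and a lowest adjusted p from 0.325 (without day 8) to 0.815 (without day 4). The limma fit matches the arrays of the 2 genotypes by stage, and the labels give no replicate numbers that could pair arrays in another way. Signals near the lower quartile limit the folds of the dimmest genes.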

Other observations

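Arrays were also compared over all 13044 genes as a description. The Mbd3 flox/- day 4 array correlated with the WT day 4 array with r = 0.913 and with the WT day 11 array with r = 0.918. It correlated with its own MEF array with r = 0.803, whereas the WT day 4 array correlated with the WT MEF array with r = 0.924. The MEF arrays of the 2 genotypes correlated with r = 0.97.

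Lef1 and Slc17a6 stood high on the Mbd3 flox/- day 4 array and low before and after. Lef1 was at 8.58 in Mbd3 flox/- at day 4, against 5.62 in Mbd3 flox/- MEF, 6.35 at day 8 and 5.53 in iPSC, and in WT it stayed between 5.58 and 5.95 from MEF to iPSC. Slc17a6 was at 8.88 in Mbd3 flox/- at day 4, against 4.87 in MEF and 4.46 at day 8, and reached 5.50 in WT at day 8. Tek, an endothelial receptor tyrosine kinase, was above MEF on both day 4 arrays, at 9.05 in Mbd3 flox/- and 10.41 in WT, against 7.21 in Mbd3 flox/- and 5.98 in WT MEF. It was at 6.46 in Mbd3 flox/- and 10.03 in WT at day 8, and at 8.68 in Mbd3 flox/- and 7.97 in WT iPSC. The other endothelial genes named (Erg, Pecam1 and Vwf) lay between 5.20 and 6.03 on the day 4 arrays.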
